A study of Mus musculus with 12 samples.

Results

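The proteasome subunit genes were read in the livers of 12 mice. They were taken by name, as every gene whose symbol begins with Psma, Psmb, Psmc, Psmd, Psme, Psmf or Psmg and a digit, with Psmb8 and Psmb9 set aside and a mean of at least 1 FPKM over the 12 libraries. FPKM counts fragments scaled to transcript length and library size, and so gives a level per length. The table of 23284 genes held 47 such symbols once Psmb8 and Psmb9 were set aside, and 44 of them reached the mean. The 3 that did not were Psma8, Psmb11 and Psmc3ip, a recombination protein that carries the prefix without being a subunit. All 44 passed the filter on low values used for the tests, in which 11546 genes took part. The member just inside the level was Psmf1, with a mean of 7.22 FPKM, and the symbol just outside was Psma8, with 0.434 FPKM. Psmb11, the thymus subunit of the core, was listed at 0 in every library.

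Every mouse carried the Apoa1-/- Apoe-/- knockout, abbreviated DKO, so no group had the mouse apolipoproteins A-I and E intact. A second genotype, DKO/hA1, added the human APOA1 gene to that knockout. The food, for 22 weeks, was either chow or Western diet, which is rich in fat, and this gave 4 DKO libraries on chow (DKO chow) and 3 on Western diet (DKO Western diet), and 2 DKO/hA1 libraries on chow and 3 on Western diet. The age, sex and strain of the mice and the promoter of the transgene are not given in the sources used here. In the text below ± is the SD over a group's libraries after a level, and the SE after a log2 fold change. The labels do not say whether mice shared a litter or a cage, so the p-values measure the spread between these libraries only.

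The proteasome degrades proteins that carry chains of ubiquitin. Its barrel-shaped core is built of rings of alpha subunits, which gate the entry, and beta subunits, of which Psmb5, Psmb6 and Psmb7 cut the protein chain. A cap of ATPase and non-ATPase subunits binds, opens and feeds in the substrate, and activators encoded by Psme genes can take the place of the cap. Inflammatory signals lead cells to build an immunoproteasome, in which Psmb8, Psmb9 and Psmb10 replace the cutting subunits. In mammals the subunit genes are known to be induced together by the transcription factor Nfe2l1 when proteasome activity is short.

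The libraries summed to 379689 to 578927 FPKM, and 10298 to 11005 genes a library reached 1 FPKM. The mouse Apoa1 gene stood at 30.4 to 77.4 FPKM in the 7 libraries labelled without human APOA1 and at 122 to 239.8 FPKM in the 5 labelled with it, and the table does not tell human from mouse transcripts. Apoe stood at 25.7 to 89.8 and 12.9 to 53.2 FPKM in the same libraries. Of 8 hepatocyte markers 7 were tested, with a mean log2 level of 9.44 to 10.13 a library. The eighth, Alb, was one of the 22 genes excluded for values of 0 in all libraries of a group. Replicate 2 of DKO Western diet and replicate 3 of DKO/hA1 Western diet stood apart in neutrophil markers, with a mean log2 level of 5.36 and 5.30 against at most 3.41 in the other libraries.

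Promoters were read for 37 of the 44 genes from RefSeq on build GRCm38.p6, as 40 windows of 300 bases (250 before the start site and 50 from it). The 100 bases before the start site are shown for Psmb5 and Psmb6, because each holds the antioxidant response element core TGACNNNGC that factors of the Nfe2l1 and Nfe2l2 family are known to bind. They are shown for Psmd11 because its level differed most with diet and because it holds the ETS site CCGGAAG, a motif that was frequent among the member promoters. Capitals mark the motif, which in Psmd11 lies on the opposite strand. The windows are chr14:54617996-54618095 on the minus strand for Psmb5, and chr11:70525257-70525356 and chr11:80428515-80428614 on the plus strand for Psmb6 and Psmd11. RefSeq also places a start of Psmb6 inside the window shown, at 70525324.
Psmb5: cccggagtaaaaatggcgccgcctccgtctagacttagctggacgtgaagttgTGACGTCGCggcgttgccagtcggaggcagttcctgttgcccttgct
Psmb6: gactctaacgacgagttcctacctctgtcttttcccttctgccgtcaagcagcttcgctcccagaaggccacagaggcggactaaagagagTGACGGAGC
Psmd11: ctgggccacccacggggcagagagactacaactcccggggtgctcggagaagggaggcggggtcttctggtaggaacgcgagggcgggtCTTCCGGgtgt

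The antioxidant response element core was found in 6 of the 40 member windows (15%) and in 12.392% of all 32851 windows of the same length, searching both strands. The 6 genes were Psmb5, Psmb6, Psmc6, Psmd9, Psmd12 and Psme4. The ETS site CCGGAAG stood in 15 windows (37.5%, against 8.858% of all windows), those of 14 genes. They included 5 non-ATPase cap genes with a match within 50 bases of the start site, Psmd2, Psmd6, Psmd11, Psmd12 and Psmd13. Such a match also lay in genes of other classes, Psma6, Psmc1, Psmc2, Psme3 and Psmg3. The share of all windows with a match this close was not counted. The GC box GGGCGG stood in 23 windows (57.5%, against 35.658%) and the CCAAT box in 12 (30.0%, against 37.408%). The paired interferon response element (GAAA, any 2 bases, GAAA) stood in 5 (12.5%, against 3.443%), those of Psmb3, Psmd4, Psmd9, Psme1 and Psmg4, and the STAT site TTCCNNGAA in 1 (2.5%, against 4.813%). The longer element TGACTCAGC, which is a form of the core, and the cyclic AMP response element TGACGTCA were in no member window (0.454% and 1.79% of all). The palindrome of GCGCA and TGCGC was in 2 windows (5.0%, against 0.971%). It is known as a site of nuclear respiratory factor 1, a factor other than Nfe2l1. The palindrome of TCTCG and CGAGA was in 1 window (2.5%, against 0.466%). These are matches of letters in a window, and no binding was measured.

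The core genes were the most abundant class per transcript length. The 8 beta genes had mean levels of 23.9 to 123 FPKM (median 66.5) and the 7 alpha genes of 27.8 to 115 FPKM (median 62.2). Psmb4, a structural beta subunit, was highest of all, at 122 ± 4.61 FPKM on chow and 139 ± 14.4 on Western diet in DKO livers, and at 115 ± 9.55 and 112 ± 13.5 FPKM in DKO/hA1 livers. Psma6 was the highest alpha gene, with a mean of 115 FPKM, and Psma3 the lowest, with 27.8 FPKM. The 6 ATPases, the ring that unfolds the substrate, lay close together at 41.7 (Psmc2) to 60.6 FPKM (Psmc3). The 11 non-ATPase genes ran from 25.9 FPKM for Psmd14, the enzyme that takes ubiquitin off the substrate, to 66.4 FPKM for Psmd4, a ubiquitin receptor.

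The activators and the inhibitor were spread more widely. Psme1 and Psme2 encode the subunits of the PA28 activator, which is associated with the immunoproteasome, and their mean levels were 67.9 and 37.6 FPKM. Psme3, the nuclear activator, had 21.1 FPKM and Psme4, the large activator PA200, 18.8 FPKM. Psmf1, which encodes the inhibitor PI31, was lowest of the 44 at 7.22 FPKM. The 7 assembly chaperones, which help to build the core (Psmg1 to Psmg4) and the base of the cap (Psmd5, Psmd9, Psmd10) and are not part of the finished particle, lay at 8.35 (Psmd10) to 15.7 FPKM (Psmg1). The mean levels of all 7 chaperones were thus below those of every core and cap gene.

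Levels varied little between livers. The ratio of the highest to the lowest library was 1.23 (Psme3) to 2.27 (Psmg4) with a median of 1.48 over the 44 genes, and the class medians of this ratio ran from 1.38 for the ATPases to 1.57 for the non-ATPase cap. The SD within groups on the log2 scale had a median of 0.15, from 0.07 for Psmb1 to 0.27 for Psmg4. It was 0.20 over all genes tested and 0.19 over the 4789 genes tested at levels within the range of the members. RefSeq lists pseudogenes of Psma5, Psmb5, Psmb6 and Psmb7, for which the share of reads between copy and gene is uncertain. In whole liver RNA, fewer cells of a type and less RNA per cell cannot be told apart.

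**Figure D1:**
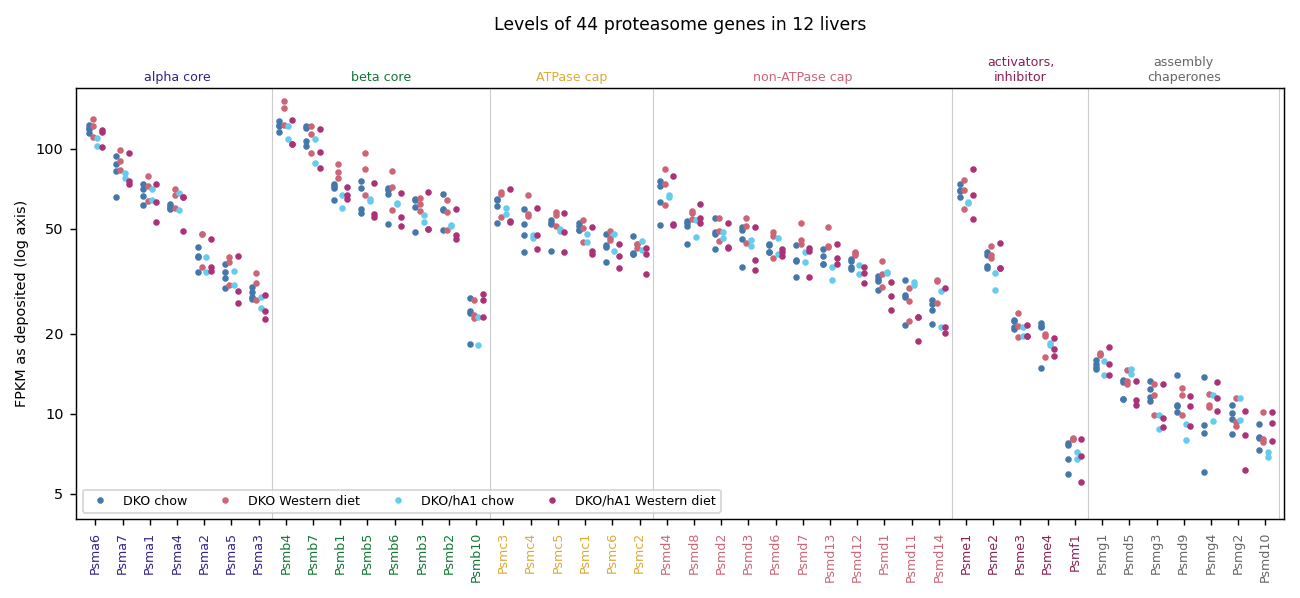
FPKM as deposited (log axis) of the 44 genes, by class and mean level; each point is a library, coloured by group. The classes lie in bands, with the assembly chaperones between 8.35 and 15.7 FPKM in the mean, and the 4 groups overlap within most genes.

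The first question was whether Western diet changed the proteasome genes in each genotype. None of the 44 was called in DKO livers (limma, with p adjusted by Benjamini-Hochberg over every gene tested and called below 0.05), where 0.113% of all genes were called, and 0 reached an unadjusted p below 0.05 against 11.8% of all genes. The smallest adjusted p was 0.482, for Psmd7. The fold changes were positive for 29 genes and negative for 15, with a median log2 fold change of 0.03 beside -0.01 over all genes tested. With libraries scaled to equal totals, 41 of the 44 were negative, with the members and all genes both at a median of -0.19.

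The cutting subunit Psmb5, responsible for chymotrypsin-like cleavage, had the highest fold change of the 44 in DKO livers. It stood at 57.2, 59.4, 70.9 and 75.6 FPKM on chow and at 83.7, 67.1 and 96.4 FPKM on Western diet. The groups overlapped through Western diet replicate 2, at 67.1 FPKM, and the log2 fold change was 0.24 ± 0.15 (adjusted p = 0.558). Psmd7, a scaffold subunit of the cap's lid, stood at 38.0 ± 4.36 FPKM on chow and 47.0 ± 4.63 FPKM on Western diet, a log2 fold change of 0.23 ± 0.12. Its chow libraries ended at 43.5 FPKM and its Western diet libraries began at 43.7 FPKM, as deposited. On the scaled log2 levels used for the fold change the groups overlapped, at 5.47 in chow replicate 3 and 5.43 in Western diet replicate 1. The lowest fold changes were those of Psme4 (-0.14 ± 0.14) and Psmg3, a core assembly chaperone (-0.14 ± 0.13). These values rested partly on single libraries. With a library left out Psmb5 ran from 0.13 (without Western diet replicate 3) to 0.37 (without replicate 2). Psme4 ran from -0.28 (without chow replicate 4) to -0.07 (without Western diet replicate 2), and Psmg3 from -0.21 (without Western diet replicate 3) to -0.05 (without replicate 2).

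In DKO/hA1 livers none of the 44 was called either, where 1.43% of all genes were, and 4 reached an unadjusted p below 0.05 against 13.5% of all genes. The fold changes were positive for 18 and negative for 26, with a median of -0.04 beside 0.00 over all genes. With equal totals 35 were negative and 9 positive, at a median of -0.13 beside -0.08 over all genes. With a library left out 19 to 33 were negative and the median ran from -0.12 to 0.02. The unadjusted 4 were Psmd11, Psmd1 and Psmd5 with negative and Psmd10 with positive fold changes.

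Psmd11, a scaffold subunit of the lid that is known to affect how much proteasome is assembled, had the lowest diet fold change of the 44 (chromosome 11, 80428615 to 80473248). It stood at 30.5 and 31.6 FPKM in the DKO/hA1 chow livers and at 23.2, 18.8 and 23.3 FPKM on Western diet, so these groups did not overlap. Groups this small often separate without an effect, and the share of all genes that did so was not counted. In DKO livers Psmd11 stood at 21.6, 27.5, 31.9 and 28.1 FPKM on chow and at 26.6, 22.4 and 29.7 FPKM on Western diet, which overlapped. The log2 fold change was -0.50 ± 0.17 in DKO/hA1 livers (limma, unadjusted p = 0.0128, adjusted p = 0.191) and -0.12 ± 0.14 in DKO livers. The difference between these diet effects was -0.38 ± 0.22 (adjusted p = 0.964). Averaged over genotypes it was -0.31 ± 0.11 (adjusted p = 0.147), and adjusted p over the alternatives ran from 0.0655 to 0.708.

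Psmd11 was high and low with the clock genes in some groups but only partly in DKO chow livers. An index of clock phase, the mean log2 level of the Arntl arm minus that of the Dbp arm, was -0.14 and 0.56 in DKO/hA1 chow livers, and -2.48, -2.65 and -0.98 in DKO/hA1 Western diet livers. In DKO Western diet livers the index was -1.71, -1.91 and -0.60, beside scaled log2 levels of Psmd11 of 4.74, 4.53 and 4.89. In DKO chow livers the index was -2.91 and -2.90 in replicates 1 and 2 and 0.70 and 0.23 in replicates 3 and 4. The scaled log2 level of Psmd11 in these libraries was 4.50, 4.93, 5.04 and 4.87. It thus differed between replicates 1 and 2 at a like index, and replicate 2 was level with replicate 4. With the index as a covariate, added after the values were seen, the Psmd11 fold change was -0.30 in DKO/hA1 livers (limma, adjusted p = 0.597). Averaged over genotypes it was then -0.20 (limma, adjusted p = 0.360). The part of clock phase in the difference was not tested further, and the labels used here give no hour of collection.

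Psmd10, the cap chaperone also called gankyrin, had the highest fold change in DKO/hA1 livers. It stood at 7.15 and 6.87 FPKM on chow and at 9.19, 7.88 and 10.2 FPKM on Western diet, and the log2 fold change was 0.33 ± 0.14 (adjusted p = 0.345). In DKO livers its levels were 8.20 ± 0.745 FPKM on chow and 8.69 ± 1.3 FPKM on Western diet. Psmb10, the inducible beta subunit that takes the place of Psmb7, stood at 23.2 and 18.2 FPKM on chow and at 28.4, 26.8 and 23.2 FPKM on Western diet in DKO/hA1 livers. Its chow replicate 1 and its Western diet replicate 3 met at 23.2 FPKM, and the log2 fold change was 0.32 ± 0.17 (adjusted p = 0.451). Psmg2, a core assembly chaperone, was low in 1 library, with 10.2, 6.12 and 8.29 FPKM on Western diet beside 9.43 and 11.5 FPKM on chow (-0.34 ± 0.19). With a library left out the Psmb10 fold change ran from 0.17 (without chow replicate 2) to 0.47 (without chow replicate 1). That of Psmg2 ran from -0.48 (without Western diet replicate 1) to -0.17 (without Western diet replicate 2), and that of Psmd10 from 0.24 to 0.41.

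**Figure D2:**
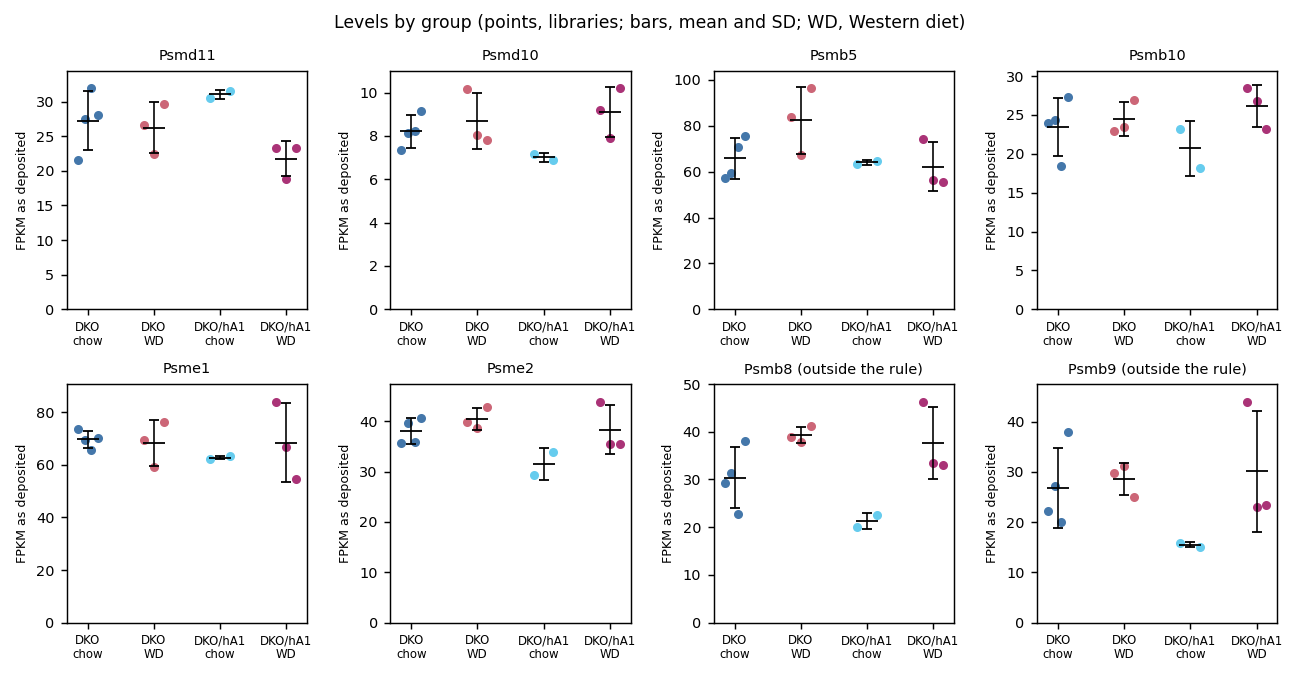
FPKM as deposited of 8 genes by group; points are libraries, and bars are the mean and SD. Psmd11 is lower in the 3 DKO/hA1 Western diet livers (18.8 to 23.3) than in the 2 DKO/hA1 chow livers (30.5 and 31.6), and Psmd10 is higher in the first (7.88 to 10.2) than in the second (6.87 and 7.15).

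Averaged over genotypes, the diet effects of the 44 genes lay around 0. They were positive for 22 and negative for 22, with a median of 0.00 beside -0.01 over all genes, and none was called where 4.06% of all genes were. With equal totals 40 were negative, at a median of -0.15 beside -0.14 over all genes. The 2 members past an unadjusted p of 0.05, against 19.6% of all genes, were Psmd11 and Psmd13. Psmd13, a lid subunit, stood at 38.7 ± 2.52 and 45.3 ± 4.47 FPKM in DKO chow and Western diet livers and at 33.9 ± 2.76 and 39.7 ± 3.59 FPKM in the DKO/hA1 groups, a log2 fold change of 0.18 ± 0.08 (adjusted p = 0.243). Psmg4 had 0.17 ± 0.15 (0.09 to 0.26 with a library left out) and Psmg2 -0.19 ± 0.12 (-0.26 to -0.10). Under the scaling used throughout, the 95% interval of each of the 44 diet effects, unadjusted, lay within 1.5-fold either way. It did so for 74.9% of all genes tested. Intervals were not read under the other scalings, and with equal totals the Psmd11 fold change was -0.46.

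The class medians were also close to 0 in the diet effect averaged over genotypes, under the scaling used throughout. They were -0.02 for the alpha core, 0.02 for the beta core, -0.02 for the ATPases, -0.03 for the non-ATPase cap, 0.00 for the activators and inhibitor and 0.06 for the assembly chaperones, and with equal totals they were -0.17, -0.14, -0.18, -0.18, -0.16 and -0.09 in the same order. The cutting subunits Psmb5, Psmb6 and Psmb7 had 0.09 ± 0.12, -0.03 ± 0.11 and -0.05 ± 0.11. The ubiquitin receptor Psmd4 had -0.04 ± 0.13 and the deubiquitinase Psmd14 had 0.05 ± 0.12. Among the activators Psme1 had 0.00 ± 0.11, Psme2 0.14 ± 0.09, Psme3 -0.05 ± 0.08 and Psme4 -0.10 ± 0.11, and the inhibitor Psmf1 had 0.04 ± 0.10.

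The second question was whether human APOA1 changed the proteasome genes. On chow none of the 44 was called, where 0.0779% of all genes were, and 3 reached an unadjusted p below 0.05 against 7.44% of all genes. On Western diet none was called, where 0% of all genes were, and 2 reached an unadjusted p below 0.05 against 5.88% of all genes. The unadjusted genes were Psmd9, Psmg3 and Psme2 on chow and Psmb1 and Psmb5 on Western diet, all 5 with negative fold changes. The genotype comparisons use the same 12 libraries as the diet comparisons, so the values below are not independent of those above.

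Averaged over diets, the fold change with human APOA1 was negative for 41 of the 44 genes and positive for Psmg4, Psmd5 and Psmd8. The median was -0.10 beside 0.00 over all genes tested, and with equal totals 16 were negative and the median was 0.03 beside 0.12 over all genes. Relative to the median of all genes, 42 were lower, and 41 to 42 were under the other scalings. None was called, where 0.104% of all genes were, and 5 had an unadjusted p below 0.05 against 8.02% of all genes. All 7 alpha, 8 beta and 6 ATPase genes and all 5 activators and the inhibitor were negative, with class medians of -0.10, -0.17, -0.09 and -0.08, as were 10 of 11 non-ATPase genes (median -0.11) and 5 of 7 chaperones (median -0.06). With equal totals 28 of the 44 genes were positive, and the class medians were 0.03 for the alpha core, -0.03 for the beta core, 0.05 for the ATPases, 0.06 for the activators and inhibitor, 0.03 for the non-ATPase cap and 0.06 for the chaperones.

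The lowest fold changes were small. Psmd9, a cap chaperone, stood at 14.02, 10.7, 10.8 and 10.1 FPKM on chow and at 11.8, 9.88 and 12.5 FPKM on Western diet in DKO livers. With human APOA1 it stood at 9.12 and 7.97 FPKM on chow and at 11.7, 10.7 and 8.96 FPKM on Western diet. Its log2 fold change averaged over diets was -0.24 ± 0.10 (limma, adjusted p = 0.585). Psmg3 had -0.23 ± 0.10 (adjusted p = 0.619). Psmb1, a structural beta subunit and the gene with the lowest spread within groups, stood at 70.4 ± 4.22 and 82.2 ± 5.02 FPKM in the DKO chow and Western diet groups. It stood at 63.5 ± 5.04 and 67.7 ± 3.62 FPKM in the DKO/hA1 groups, a log2 fold change of -0.20 ± 0.08 (adjusted p = 0.503). Psma3 and Psmd13 had -0.19 ± 0.08 and -0.18 ± 0.08, Psmd5 had 0.01 ± 0.08 and Psmg4 had 0.14 ± 0.15 (0.06 to 0.23 with a library left out).

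**Figure D3:**
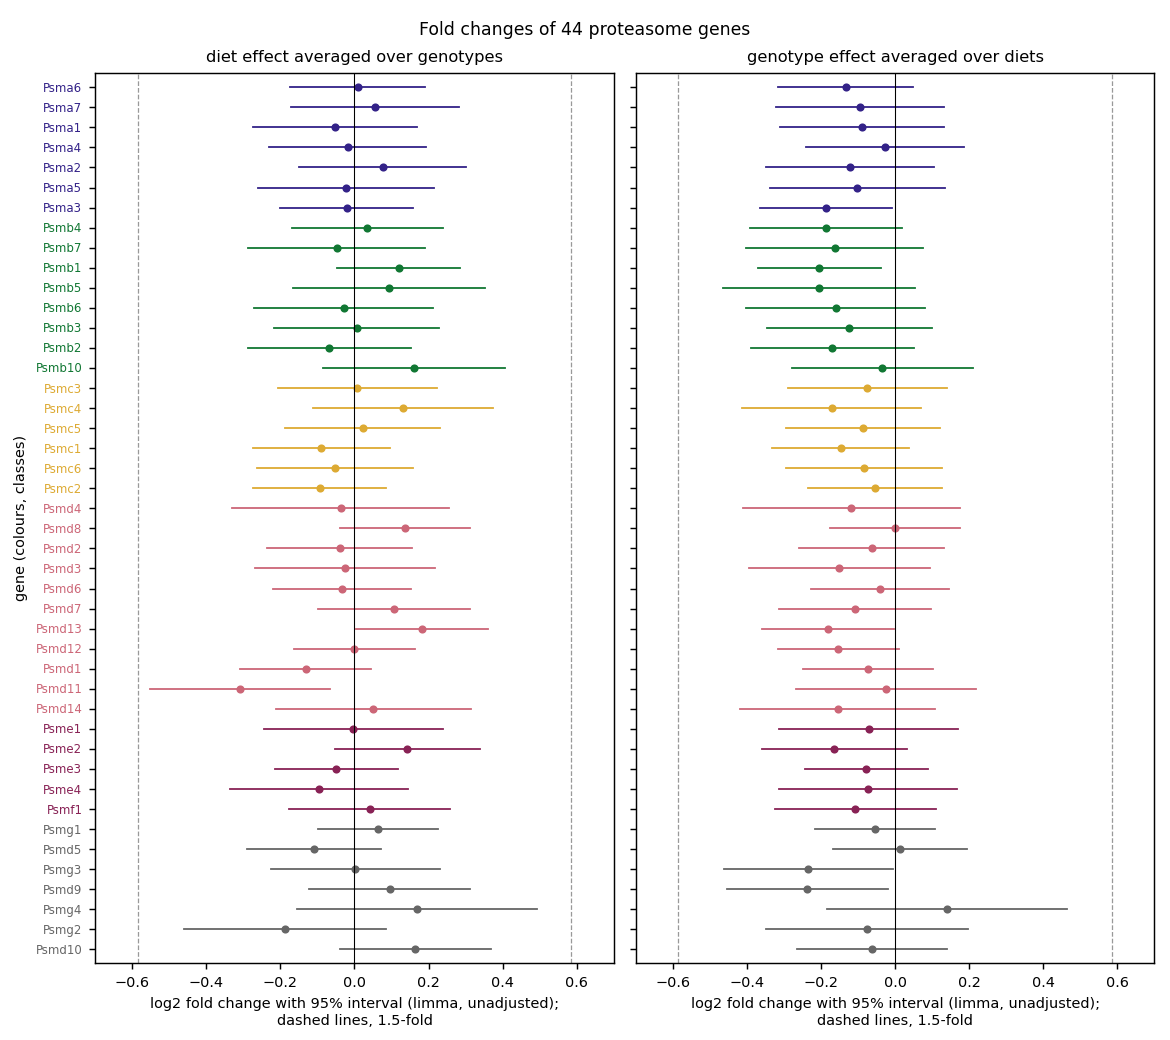
Log2 fold changes of the 44 genes with unadjusted 95% intervals from limma, for diet averaged over genotypes (left) and human APOA1 averaged over diets (right); colours are classes and dashed lines mark 1.5-fold. Diet effects fall on both sides of 0, and 41 of 44 genotype effects are negative (16 with equal totals). All intervals, under the scaling used throughout, lie between the dashed lines, as do 74.9% (diet) and 80.7% (genotype) over all genes tested.

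The levels of these genes shifted together from liver to liver, so the 41 negative values are not independent of each other. The mean log2 level over the 44 genes was 5.25 ± 0.03 on chow and 5.28 ± 0.09 on Western diet in DKO livers, and 5.17 ± 0.06 and 5.15 ± 0.15 in DKO/hA1 livers. The DKO/hA1 Western diet libraries ran from 5.06 to 5.33 and so spanned all libraries of the DKO chow group (5.22 to 5.28). In DKO/hA1 Western diet replicate 1 the level of 40 of the 44 genes was above their own group mean, and in replicates 2 and 3 that of 5 and 13. In DKO Western diet livers it was 31, 4 and 34, with the low count in replicate 2. In DKO/hA1 chow livers it was 10 and 34, which mirror each other because the group holds only 2 libraries. In DKO chow livers the counts were 14, 24, 27 and 26. Over all genes tested, 47.7 to 52.3% were above their group mean in each library, and both ends of this range are the mirrored DKO/hA1 chow libraries.

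The low libraries were partly those high in neutrophil markers. Replicate 2 of DKO Western diet (4 of 44 above the group mean) and replicate 3 of DKO/hA1 Western diet (13 of 44) were the highest in neutrophil markers, while DKO/hA1 Western diet replicate 2 (5 of 44) had a mean log2 neutrophil level of 2.29. The summed level of the neutrophil markers was 29.4 to 90.04 FPKM on chow and 502 to 4226 on Western diet in DKO livers, and 40.3 to 76.1 and 108 to 4485 FPKM in DKO/hA1 livers. Without these libraries the median genotype effect averaged over diets was -0.12 and 41 genes were negative. The median diet effect was 0.07 averaged over genotypes and 0.09 in DKO livers, where 9 genes were negative. The same 2 libraries were also the highest in the 12 acute-phase genes, such as Saa1 and Hp, which share Lcn2 with the neutrophil markers. Their mean log2 level was 12.42 and 12.26, against at most 11.70 in the other libraries. They summed to 138290 and 118820 FPKM, in libraries of 578927 and 482824 FPKM in all. The part of these cells or of the acute-phase genes in the levels was not tested.

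**Figure D4:**
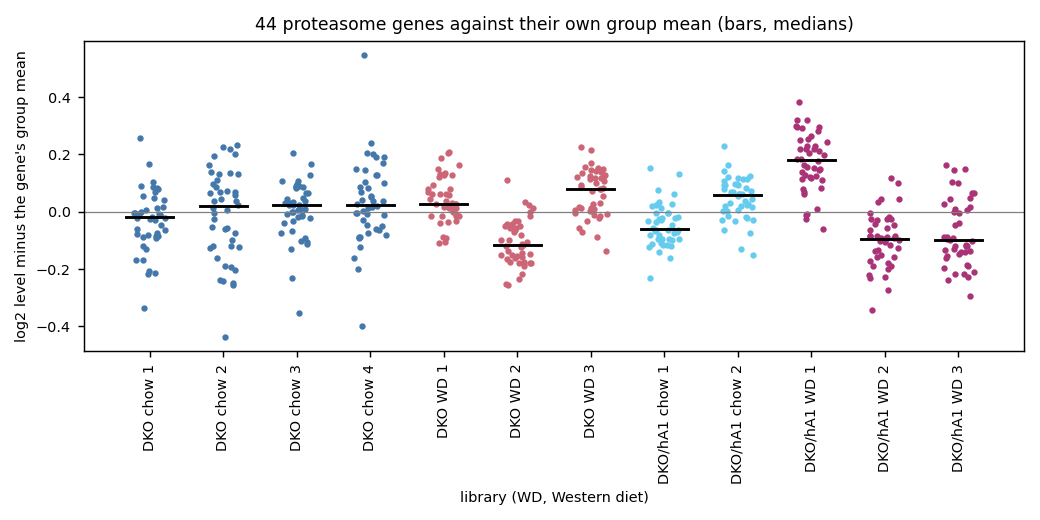
Each point is 1 of the 44 genes in 1 library, as its scaled log2(FPKM + 1) level minus the mean of its group, and bars are medians over the genes. Most points of DKO/hA1 Western diet replicate 1 lie above 0 (40 of 44) and most of DKO Western diet replicate 2 below (40 of 44).

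**Figure D5:**
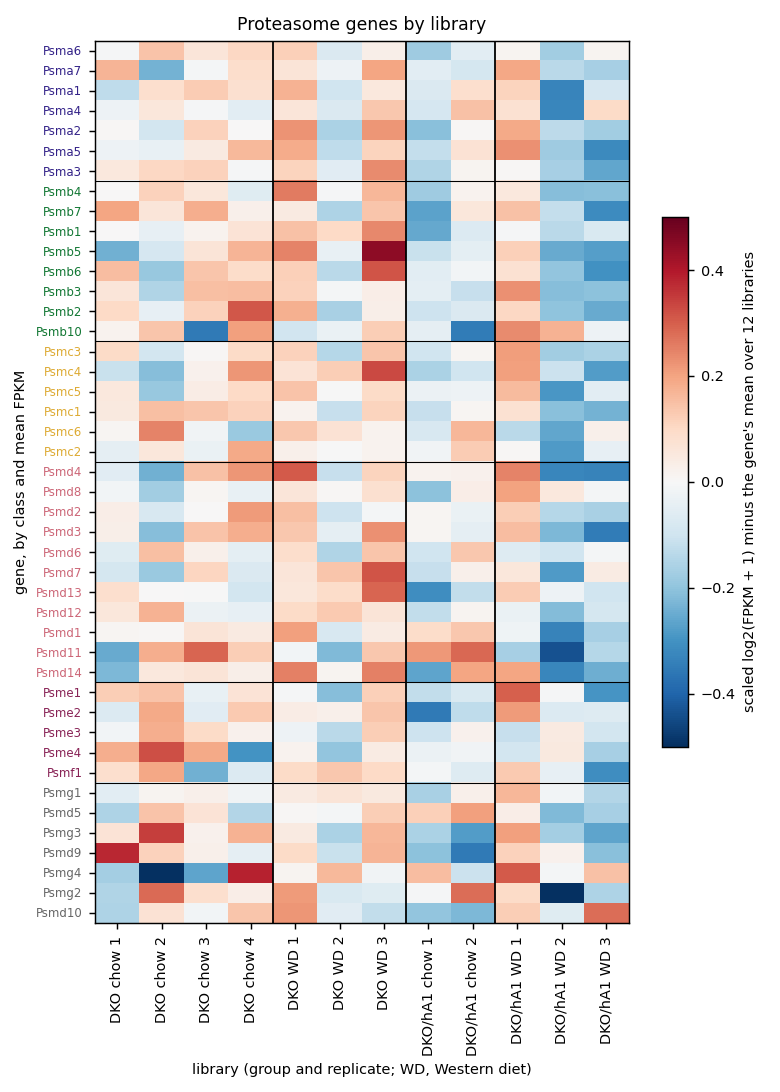
Scaled log2(FPKM + 1) level of each gene minus its mean over the 12 libraries, with genes in rows by class and libraries in columns by group; the colours end at 0.5 on the log2 scale, and 2 of 528 values lie beyond. Some columns are mostly red or mostly blue, such as DKO/hA1 Western diet replicate 2. Psme3, Psme4, Psmb10 and Psmd8 are among the genes not blue in that column. Against their group mean, a reference other than that of the colours, 39 of 44 genes are below in it.

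The third question was whether diet acted differently in the genotypes. No member was called in the interaction, where 0.0173% of all genes were, and 0 reached an unadjusted p below 0.05 against 4.93% of all genes. The differences between the diet effects were negative for 28 genes and positive for 16, with a median of -0.09 beside 0.01 over all genes (16 negative, median 0.04, with equal totals, where all genes were at 0.11). They ran from -0.38 ± 0.22 for Psmd11 to 0.33 ± 0.22 for Psmb10. By class, 6 of 7 alpha core genes were negative (median -0.09), 4 of 8 beta core genes (-0.02), 5 of 6 ATPases (-0.12), 9 of 11 non-ATPase cap genes (-0.19), 1 of the 5 activators and inhibitor (0.10) and 3 of 7 assembly chaperones (0.01). With equal totals, a split by class added after the values were seen, the classes in the same order had 1, 3, 3, 6, 1 and 2 negative genes, with medians of 0.03, 0.11, 0.00, -0.07, 0.22 and 0.13. The 95% interval, under the scaling used throughout, was within 1.5-fold for 23 of the 44 genes and within 2-fold for all 44. This compares with 32.2% and 74.4% of all genes.

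The inducible genes set aside by the rule gave a scale for the members. Psmb8, the immunoproteasome counterpart of Psmb5, stood at 29.3, 31.4, 22.7 and 38.2 FPKM on chow and at 38.9, 37.9 and 41.1 FPKM on Western diet in DKO livers. In DKO/hA1 livers it stood at 20.1 and 22.5 FPKM on chow and at 46.3, 33.4 and 33.1 FPKM on Western diet. Its diet effect averaged over genotypes was called, at 0.54 ± 0.13 (limma, adjusted p = 0.0445). The call was lost in 6 of 12 other settings and on leaving out any of 10 of the 12 libraries (all but DKO chow replicate 4 and DKO/hA1 Western diet replicate 3), with adjusted p from 0.0284 to 0.374. Psmb9, the counterpart of Psmb6, had 0.45 ± 0.19 (adjusted p = 0.221), and 0.85 ± 0.29 in DKO/hA1 livers (adjusted p = 0.205), with 15.9 and 15.1 FPKM on chow and 44.0, 23.0 and 23.3 FPKM on Western diet.

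Of the 13 genes of the immunoproteasome and peptide loading, which include the members Psmb10, Psme1 and Psme2, 1 was called higher with Western diet averaged over genotypes and none lower, with a median log2 fold change of 0.15. Over all genes in that comparison 4.06% were called, 330 of 11546 higher and 139 lower, with a median of -0.01, and without DKO/hA1 chow replicate 2 the calls over all genes fell from 469 to 31. Psme1 stood at 69.7 ± 3.19 FPKM on chow and 68.3 ± 8.64 on Western diet in DKO livers, and at 62.8 ± 0.625 and 68.5 ± 14.9 FPKM in DKO/hA1 livers. Psme2 stood at 38.0 ± 2.6, 40.5 ± 2.2, 31.6 ± 3.19 and 38.3 ± 4.83 FPKM in the same order, and its diet effect in DKO/hA1 livers was 0.27 ± 0.14 (adjusted p = 0.436). Of the 16 macrophage markers, which include C1qa and Clec4f, 10 were called higher in the same diet comparison, with a median of 1.34, beside the 330 of 11546 called higher over all genes. Their summed level was 250 to 763 FPKM in the chow livers and 1034 to 2345 in the Western diet livers. With the macrophage level as a covariate the median diet effect of the 44 genes was 0.10. The diet effect of Psmb8 was then 0.75 (limma, adjusted p = 0.374), beside 0.54 without the covariate. The macrophage levels of chow and Western diet livers did not overlap, so this fit could not separate diet from these cells. Their part in the Psmb8 and Psmb10 values was not tested and cannot be told apart from that of diet.

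The rest of the ubiquitin pathway also gave no calls. None of the 13 proteasome partners outside the rule, 4 ubiquitin genes, 21 activation and conjugation genes or 15 shuttle and unfolding genes was called by limma. This held in each of the 7 comparisons, where 0 to 4.06% of all genes were called. At most 2 genes of any of these lists reached an unadjusted p below 0.05 in a comparison. Averaged over genotypes, an unadjusted p below 0.05 with diet was reached by 1, 0, 2 and 1 of these 13, 4, 21 and 15 genes, all lower, against 19.6% of all genes. Averaged over diets it was reached with human APOA1 by 1 lower, 0, 1 higher and 1 higher, against 8.02% of all genes. The diet effect averaged over genotypes was negative for 7, 2, 15 and 13 genes of these lists. Its medians were -0.09, -0.001, -0.03 and -0.11, beside -0.01 over all genes. Nfe2l1, the inducer of the subunit genes, had a diet effect averaged over genotypes of 0.16 ± 0.09 and a genotype effect averaged over diets of -0.03 ± 0.09. Nfe2l2, the factor of the antioxidant response, had 0.16 ± 0.10 and 0.12 ± 0.10. Median genotype effects averaged over diets were -0.03 for the partners, 0.15 for the ubiquitin genes, -0.03 for activation and conjugation and 0.02 for the shuttles, beside -0.10 for the 44 subunit genes, and these medians were not tested against each other.

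How large a difference could have been missed was read from the intervals, under the scaling used throughout only. Within DKO livers the unadjusted 95% interval of the diet effect was within 1.5-fold for 43 of the 44 genes (65% of all genes), with Psmg4 as the exception. Within DKO/hA1 livers it was so for 37 (50.9% of all genes), and for the genotype effect for 41 on chow and 40 on Western diet (58.7% and 64.9%). In each of the 7 comparisons all 44 intervals were within 2-fold, beside 74.4 to 95% of all genes. Averaged over diets the lowest bound of any member was -0.46 for the genotype effect, of Psmb5, and the highest was 0.46, of Psmg4.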

How the data were processed

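Liver RNA of 12 mice in 4 groups was sequenced. The deposited table holds FPKM per gene, although its name says counts: values have decimals and libraries sum to different totals. Per the submitters' processing notes, the authors used TopHat 1.3.2, Bowtie 0.12.8, SAMtools 0.1.19 and Cuffdiff with mouse build mm10. The annotation and read numbers are not given in the sources used here. Low FPKM steps placed the libraries at a depth of 0.518 to 1.301 relative to DKO chow replicate 1. The steps were weak outside the DKO chow group, so no counting interval is given.

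Libraries were scaled by trimmed means of their log ratios without weights (trim 0.3 and 0.05; factors 0.929 to 1.038), and 1 was added before log2, which understates changes of low genes. Small RNA genes (787) and 22 genes at 0 throughout a group were left out, and genes at 1 FPKM in at least 2 libraries were tested. limma 3.58.1 (R 4.3.3, statmod 1.5.0) was fitted to the 4 groups with a trended, robust variance and Benjamini-Hochberg adjustment over 11546 genes, and was tested on simulated data. Figures and motifs used Python 3.11.15, pandas 2.3.3, numpy 2.4.6 and matplotlib 3.10.9. Alternatives changed the added value, filter, scaling, variance, libraries, blocks or covariates.

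Members and lists were chosen with earlier results of these data known. Named genes were the cutting subunits, activators, inhibitor, Psmd4, Psmd14, the highest and lowest of each class, called genes, and the 2 largest rises and falls in the diet and averaged comparisons. Psmd1, Psmd8, Psmb1, Psma3, Psmb3, Psmd2, Psmd6, Psmd12, Psmc1 and Psmc6 were named after their values or motifs were seen.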

Additional observations from a re-analysis of the deposited data

Results flagged for a closer look

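Psmd14, the deubiquitinase of the cap, was low in a single DKO chow library. Its scaled log2 level was 4.51 in DKO chow replicate 1 and 4.76, 4.79 and 4.80 in the other 3 libraries, and the gap to the nearest of them was 0.884 of the group's range, above Dixon's 95% critical value for 4 libraries. It was the only such case among 50 values examined, a check that marks about 1 in 20 groups by chance.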

How the results depend on the processing

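No proteasome gene was called in any of the 7 comparisons under any alternative, including each library left out; where a DKO/hA1 chow library was left out, the remaining one was assumed to vary like the other groups. The counts over all genes did depend on the processing, for causes that were not tested. For diet in DKO livers the count of 13 became 7 with at least 5 FPKM, 31 without the 2 libraries highest in neutrophil markers and 7 with the macrophage level as a covariate, and ran from 7 to 71 with a library left out. For diet in DKO/hA1 livers 165 became 85 with at least 5 FPKM, 69 with equal totals, 13 with only the groups compared, 85 with a replicate block, 19 with the code number as a block, 56 without the neutrophil libraries, 5 with the macrophage level and 5 with the clock index, and ran from 6 (without DKO/hA1 chow replicate 2) to 191. For genotype on chow 9 became 3 with 0.1 added, 27 without the filter, 4 with at least 5 FPKM, 37 with only the groups compared, 28 with the code number, 38 without the neutrophil libraries and 5 with the clock index, and ran from 2 to 33. For the interaction 2 became 8 without the filter and 1 with equal totals, with the replicate block and with the clock index, and ran from 1 to 8. For diet averaged over genotypes 469 became 40 with the code number, 242 without the neutrophil libraries and 7 with the macrophage level, and ran from 31 (without DKO/hA1 chow replicate 2) to 547. For genotype averaged over diets 12 became 7 with 0.1 added, 21 without the filter, 4 with at least 5 FPKM, 21 with equal totals, 6 with the replicate block, 20 with the code number and 7 with the clock index, and ran from 2 to 13. No gene was called for genotype on Western diet under any alternative.

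The median log2 fold change of the 44 genes moved by more than the spread between libraries (0.093) with equal totals, to -0.19 for diet in DKO, 0.0649 for genotype on Western diet, 0.035 for the interaction, -0.15 for diet averaged and 0.0307 for genotype averaged, where 16 genes were then negative. With the macrophage level as a covariate, which could not be separated from diet, it moved to 0.11 for diet in DKO/hA1 livers and 0.10 for diet averaged. For genotype on Western diet it ran from -0.23 (without DKO/hA1 Western diet replicate 1) to -0.0897 with a library left out, and for genotype averaged over diets 38 to 43 genes were negative. Psmg2 and Psmg4 changed sign with the macrophage level in the averaged diet effect (to 0.0157 and -0.27), and Psmd5 in the averaged genotype effect, at -2e-04 with the replicate block and -0.024 to 0.039 with a library left out. The code number is the first number of the animal code in the labels, and what it stands for is not stated.

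Correlations of deviations between libraries of different groups were -0.28 to 0.45 over 15 same-numbered pairs, with 4 above 0.1. Over 38 pairs with different numbers they were -0.52 to 0.55, with 10 above 0.1. Deviations cancel within each group, so these values could not exclude a pairing by replicate number. With the replicate block no member was called either, and 41 genes were negative in the averaged genotype effect. Depth is known only as a rough ratio, and 2 DKO/hA1 chow libraries limit each comparison that uses them.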
